A study of Rattus norvegicus with 2 samples.

Results

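The genes described here are Gcg, Pmch, Penk and Agt, 4 of the 32623 genes listed in the count tables of rat cochlear cells. Each gene had 1 row, found by its symbol (Ensembl identifiers ENSRNOG00000005498, ENSRNOG00000004632, ENSRNOG00000008943 and ENSRNOG00000018445). The 4 were chosen by their measured levels in these libraries, as peptide precursors seen in mesenchyme and at different levels at the 2 ages, so their pattern over ages and cells is given as a description, with no test. The cells came from cochlear tissue of Sprague-Dawley rats at postnatal day 1 (P1) and postnatal day 7 (P7), with no treatment in either group. There was 1 library per age, made from pooled animals, and age and library cannot be told apart. Every interval below is a 95% interval that covers counting error only: exact Poisson for a level, Clopper-Pearson for a share of cells and, for a ratio of counts, the Clopper-Pearson interval of the P7 share of the 2 counts.

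All 4 genes encode precursors of secreted peptides. Gcg encodes proglucagon, which is cut into glucagon in pancreatic alpha cells and into the glucagon-like peptides in gut endocrine cells and some neurons. Pmch encodes the precursor of melanin-concentrating hormone, a hypothalamic peptide known for its role in feeding and sleep. Penk encodes proenkephalin, the source of the enkephalins, which are opioid peptides. Agt encodes angiotensinogen, the precursor of the vasoactive angiotensins, and is best known from liver. Proglucagon, the melanin-concentrating hormone precursor and proenkephalin are cut by prohormone convertases and trimmed by a carboxypeptidase in the secretory pathway, whereas angiotensinogen is cut outside the cell. Cochlear mesenchyme surrounds the duct and forms the fibrocytes of the spiral ligament and limbus, which carry ions and make matrix.

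Gcg had the largest change between the libraries of the 4 genes, and the stretch before its start site is shown for that reason. In RefSeq on assembly GRCr8, which is not the assembly rn6 used for the counts, the 250 bases before the annotated start lay at chr3:67531534-67531783 on the minus strand. They are printed 5′ to 3′, and the capitals mark a TATAAA match that begins 32 bases before the start.
Gcg: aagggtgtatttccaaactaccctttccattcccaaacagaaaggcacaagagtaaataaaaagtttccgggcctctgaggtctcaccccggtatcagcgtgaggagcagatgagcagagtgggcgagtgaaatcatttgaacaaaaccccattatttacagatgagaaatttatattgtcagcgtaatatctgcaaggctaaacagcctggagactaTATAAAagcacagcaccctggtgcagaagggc
TATAAA was searched on both strands. It matched 2 times in this stretch, 1 time on the strand printed, and 12.9% of the 33469 promoters of the same length held it. CANNTG, a palindrome, matched 3 times, and 65.5% of promoters held it at least 1 time. The table used held no entry for Pmch, Penk or Agt.

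The tables held 28569 barcodes, of which 25360 passed the study's stated limits (12779 at P1 and 12581 at P7). The cells kept had 98005495 unique molecular identifiers (UMIs, the tags that count captured transcripts) at P1 and 93080129 at P7, and the median cell had 6565 and 6878. The libraries shared 60 barcodes. Clustering of the merged cells, with the 4 genes and all listed genes left out, gave 26 clusters (C0 to C25), and 18 of them drew over 90% of their cells from 1 library. The submitters' cell type label names greater epithelial ridge cells. Epcam, an epithelial marker, led only in C14, which held 279 cells at P1 and 216 at P7, whereas 10 clusters were mesenchyme-like and held 8528 P1 and 7146 P7 cells, 63.4% and 58.4% of all UMIs. In the mesenchyme-like clusters that led for a member (C0, C3 and C11 at P1; C4, C6, C7 and C10 at P7), the otic mesenchyme genes Pou3f4 and Tbx18 had between 320 and 625 CPM (counts per 1000000 of all UMIs of those cells), against 33.6 and 40.4 CPM in C14 at P1 and 61.8 and 56.3 CPM at P7. The whole list of 14 otic mesenchyme genes set C14 apart less. At P7, 9 of them were detected in at least 10% of cells in C6, C10 and C14 alike, and 14 in C4 and C7. Their summed levels were 2199 CPM in C6, 1912 CPM in C10 and 1315 CPM in C14, where Lum led with 436 CPM.

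Over all cells, Gcg, Pmch and Agt had higher levels at P7 and Penk had a lower level. Gcg had 945 UMIs at P1, a level of 9.64 CPM (9.04 to 10.3), and 24727 UMIs at P7, a level of 266 CPM (262 to 269). Pmch had 516 UMIs at P1, a level of 5.27 CPM (4.82 to 5.74), and 7814 UMIs at P7, a level of 83.9 CPM (82.1 to 85.8). Agt had 1040 UMIs at P1, a level of 10.6 CPM (9.98 to 11.3), and 8548 UMIs at P7, a level of 91.8 CPM (89.9 to 93.8). For these 3 genes the P7 library was the higher and the intervals did not overlap. Penk had 3507 UMIs at P1, a level of 35.8 CPM (34.6 to 37.0), and 976 UMIs at P7, a level of 10.5 CPM (9.84 to 11.2), so that the P1 library was the higher.

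The ratio of P7 to P1 on the log2 scale was 4.78 for Gcg (4.69 to 4.88), a 27.6-fold difference. It was 4.0 for Pmch (3.87 to 4.13), a 15.9-fold difference, and 3.11 for Agt (3.02 to 3.21), an 8.65-fold difference. For Penk it was -1.77 (-1.87 to -1.67), a level 3.41-fold lower at P7. Of the 11780 genes with at least 200 UMIs in either library, 10.4% were more than 2-fold higher at P7 and 10% more than 2-fold lower, and the median log2 ratio of all of them was 0.085. The genes were chosen with these directions known, so nothing is read from their counts against that background. Leaving out the 10 cells with most UMIs of the gene in each library kept the direction of all 4, with levels at P1 and P7 of 6.63 and 233 CPM for Gcg, 3.44 and 43.1 CPM for Pmch, 32.2 and 8.98 CPM for Penk and 10.1 and 90.3 CPM for Agt.

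**Figure D1:**
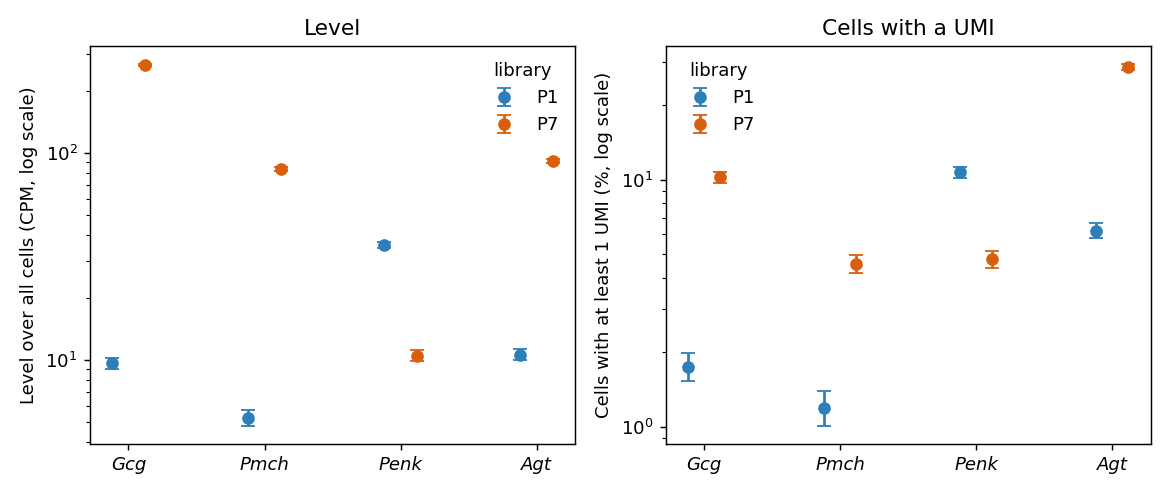
Level of each precursor over all cells in CPM (left, log scale) and percent of cells with at least 1 UMI (right, log scale) in the P1 and P7 libraries. Points are the value of the library and bars the 95% counting intervals; Gcg, Pmch and Agt sit higher at P7 in both panels and Penk sits lower.

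Both the number of cells with a UMI and the UMIs per such cell differed between the ages. Cells with at least 1 Gcg UMI were 223 of 12779 at P1 (1.75%, 1.53 to 1.99) and 1284 of 12581 at P7 (10.2%, 9.68 to 10.7), and such cells held a mean of 4.24 UMIs at P1 and 19.3 at P7. For Pmch they were 152 cells at P1 (1.19%, 1.01 to 1.39) and 572 at P7 (4.55%, 4.19 to 4.93), with means of 3.39 and 13.7 UMIs. For Agt they were 794 cells at P1 (6.21%, 5.80 to 6.65) and 3592 at P7 (28.6%, 27.8 to 29.3), with means of 1.31 and 2.38 UMIs. For Penk they were 1366 cells at P1 (10.7%, 10.2 to 11.2) and 599 at P7 (4.76%, 4.40 to 5.15), with means of 2.57 and 1.63 UMIs. To compare the shares at 1 depth, each cell was thinned to 2000 UMIs, which left out 252 shallower cells at P1 and 711 at P7. The thinned shares were 0.870% at P1 and 5.92% at P7 for Gcg, 0.639% and 2.51% for Pmch, 2.07% and 13.4% for Agt, and 4.54% and 1.62% for Penk, in the same directions.

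The UMIs of Gcg and Pmch were held by few cells, and those of Agt at P7 by many. Of Gcg UMIs, 50% lay in 23 cells at P1 and in 72 cells at P7. For Pmch this took 18 cells at P1 and 12 at P7. For Penk it took 204 and 136 cells, and for Agt 274 and 804. The 1% of cells with most UMIs of the gene held 89.8% of Gcg UMIs at P1 and 66.7% at P7, 95.2% and 88.3% of Pmch UMIs, 40.0% and 47.7% of Penk UMIs, and 31.2% and 13.5% of Agt UMIs. Over 50% of UMIs in 1% of cells was seen for 10.1% of the 11357 genes of at least 200 UMIs at P1 and for 7.74% of the 11014 such genes at P7, where the medians over genes were 17.4% and 15.7%. At P7, 85 genes had a higher share in 1% of cells than Pmch, 259 a higher share than Gcg, 960 a higher share than Penk and 6284 a higher share than Agt.

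**Figure D2:**
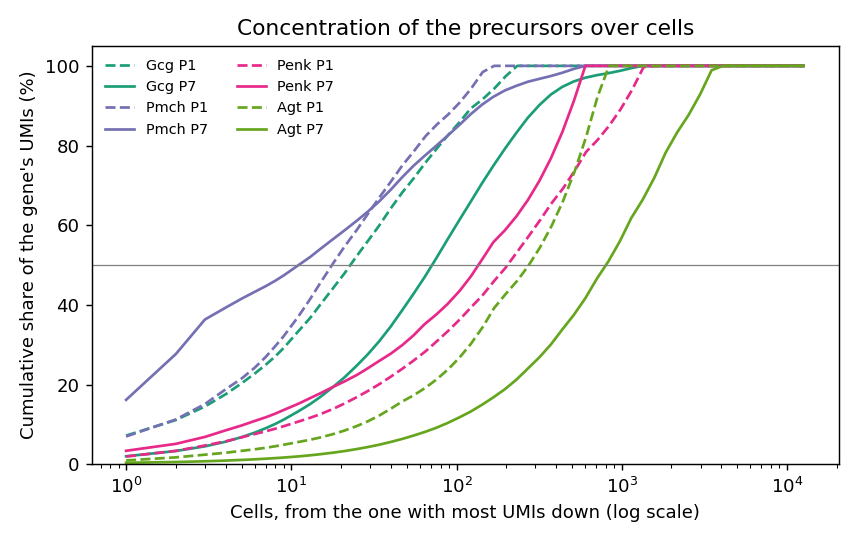
Cumulative share of each gene's UMIs (percent) over cells ordered from the cell with most UMIs of that gene (log scale), dashed for P1 and solid for P7; the grey line marks 50%. Pmch at P7 crosses 50% at 12 cells and Agt at P7 at 804 cells.

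Gcg at P7 was concentrated in C10, a fibrocyte-like cluster led by Gcg itself, Car3, which encodes a carbonic anhydrase, and Otos, which encodes otospiralin, a protein of inner ear fibrocytes. C10 held 911 P7 cells and 5 P1 cells. It had 20509 Gcg UMIs, 82.9% of those at P7, a level of 2329 CPM (2297 to 2361). Of its cells, 406 had 0 Gcg UMIs, 222 had 1 to 9, 214 had 10 to 99 and 69 had 100 or more. The 69 highest cells held 58.0% of the UMIs of the cluster, so cells with very different Gcg counts shared this cluster. The highest cell had 496 Gcg UMIs, 3.31% of its 14974 UMIs, with 537 Otor UMIs and 0 Epcam UMIs; Otor encodes otoraplin, a secreted fibrocyte protein. All 7 fibrocyte markers were detected in at least 10% of C10 cells, as were 1 of 9 epithelial, 0 of 8 neuronal and 6 of 8 glial markers, and Chga, a granule protein of endocrine cells, had 0 UMIs there.

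The next P7 level of Gcg was 136 CPM in macrophages (C17, 117 to 157), followed by 134 CPM in the fibroblast-like C4 (128 to 140), and these did not differ beyond their intervals. The macrophage level came from 187 UMIs in 18 of 176 cells, and without its 2 highest cells, both called doublets, it was 12.7 CPM. Glia (C1) had a Gcg UMI in 89 of 2587 cells at P7 (3.44%, 2.77 to 4.22), at a median depth of 4530 UMIs. In C10, 505 of 911 cells had one (55.4%, 52.1 to 58.7), at a median depth of 9255 UMIs. Whether the Gcg UMIs of glia came from free RNA or from the cells themselves was not tested. In C4, 1836 Gcg UMIs lay in 231 of 1890 cells, and 37 of these cells had 10 or more.

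At P1, Gcg lay in C0 and C11. C0, the fibrocyte-like cluster of that age led by Isyna1 and Gria2, had 666 of the 945 UMIs (70.5%), a level of 34.1 CPM (31.5 to 36.8). C11, a fibroblast-like cluster led by Col6a1 and Cldn1, had 165 UMIs, a level of 26.5 CPM (22.6 to 30.8). These were the highest of the 14 clusters with at least 50 P1 cells, and their intervals did not overlap. The third, dividing cells (C8), had 7.31 CPM (5.51 to 9.51). The level of the highest P1 cluster rose with other clusterings, to between 80.6 and 108 CPM. No Gcg UMI was found in the 190 macrophages or the 279 epithelial cells of P1, which allows shares of cells with a UMI of up to 1.92% and 1.31%. Because most merged clusters belonged to 1 library, the ages were also compared after integration, which placed P1 and P7 cells in joint clusters (I0 to I24). In I6, led by Gcg, Otos and Car3, Gcg had 593 UMIs in 924 P1 cells (85.7 CPM) and 19679 UMIs in 759 P7 cells (2676 CPM), a log2 ratio of 4.96 (4.85 to 5.08). Across the 21 integrated clusters with at least 50 cells of each age, the interval of the Gcg ratio lay above 0 in 13 and below 0 in 0, and 8 had 0 UMIs at 1 of the ages or both. Of the 13, 5 (I0, I3, I5, I8 and I12) had P7 levels between 4.82 and 8.74 CPM, near the 6.87 CPM of glia (C1). Free RNA was not estimated, and in these 5 it cannot be told apart from low expression.

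Pmch was in mesenchyme at P1 and was shared between mesenchyme and epithelium at P7. At P1, C0 had 376 of the 516 UMIs (72.9%), a level of 19.2 CPM (17.3 to 21.3). Dividing cells (C8) were next with 8.24 CPM (6.32 to 10.6), and the lower neighbours overlapped each other. With integration or a higher resolution the highest P1 cluster had 51.2 and 55.0 CPM. At P7, the mesenchyme-like C6 had 2932 UMIs (37.5%), a level of 269 CPM (259 to 279), in 291 of 1635 cells. All 7 fibrocyte markers were detected in at least 10% of the P7 cells of C6. Their summed level was 30410 CPM there, beside 28836 CPM in C0 at P1 and 39771 CPM in C10 at P7, both fibrocyte-like. With more components, the cluster led by Pmch took the fibrocyte name. Whether Pmch left fibrocyte-like cells between the ages was not tested. C6 was led by Asb9, Dlx5, Pmch and Wif1; Dlx5 encodes a homeodomain factor and Wif1 a secreted Wnt inhibitor. The share of Pmch UMIs in mesenchyme-like clusters was 85.9% at P1 and 43.2% at P7, beside a median over genes of 62.3% at P1 and 58.9% at P7. For Gcg it was 92.5% and 93.3%, for Penk 78.9% and 77.2%, and for Agt 83.1% and 87.4%. Over 50% lay in mesenchyme-like clusters for 82.8% of genes at P1 and for 80.4% at P7, so 4 of 4 members at P1 and 3 of 4 at P7 is near the background. Over 50% in a single merged cluster was seen for 7.36% of genes at P1 and 3.87% at P7, and among the members for Gcg, Pmch and Penk at P1 and for Gcg and Pmch at P7; the members were chosen with this known. The name cochlear mesenchyme therefore covered less than 50% of Pmch UMIs at P7; without cells called doublets the share was 53.9%.

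The highest Pmch level of all was in the epithelial C14 at P7, where 3941 UMIs (50.4% of those at P7) gave 2174 CPM (2106 to 2242). They lay in 23 of 216 cells, and 8 of these cells held 91.0% of the UMIs of the cluster. The 3 highest cells had 1263, 899 and 677 Pmch UMIs, which made up 8.02%, 7.45% and 4.31% of all UMIs of those cells. The first of the 3 was called a doublet. Without these 3 cells C14 had 623 CPM, the P7 library had 53.5 CPM of Pmch in place of 83.9 CPM, the log2 ratio of P7 to P1 was 3.34 in place of 4.0, and 67.8% of the remaining UMIs were in mesenchyme-like clusters. At P1 the 279 cells of C14 had 0 Pmch UMIs, which allows a level of up to 1.57 CPM and a share of cells of up to 1.31%. With 0 counts at P1 no fold was measured. If 3 counts are assumed for those P1 cells, a level of 1.28 CPM, the P7 level would be 1703-fold higher. Without the 3 highest cells it would be 488-fold higher. Both figures depend on the assumed count, and at the limit of 1.57 CPM they would be smaller.

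The epithelial cells rich in Pmch differed from the other epithelial cells of that age. The 13 P7 cells of C14 with 10 or more Pmch UMIs were set beside the 193 cells with 0; their median depths were 14261 and 5880 UMIs, and 1 of the 13 was called a doublet. Epcam was present in 13 of the 13 (2233 CPM, against 1798 CPM). Oc90, which encodes the main otoconial protein, had 22.9 CPM in them and 20961 CPM in the others, although the percent of cells with an Oc90 UMI was 30.8 and 25.4. Tectb, which encodes a tectorial membrane protein, had 74.4 and 1618 CPM. Spink8, a serine protease inhibitor gene, had 630 CPM against 3.26 CPM, and Agr3, a protein disulphide isomerase family gene, had 2004 CPM against 133 CPM. Pnoc, the precursor of the opioid-related peptide nociceptin, had 212 CPM in the rich cells and 0 UMIs in the others. These genes were singled out after their values were seen.

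**Figure D3:**
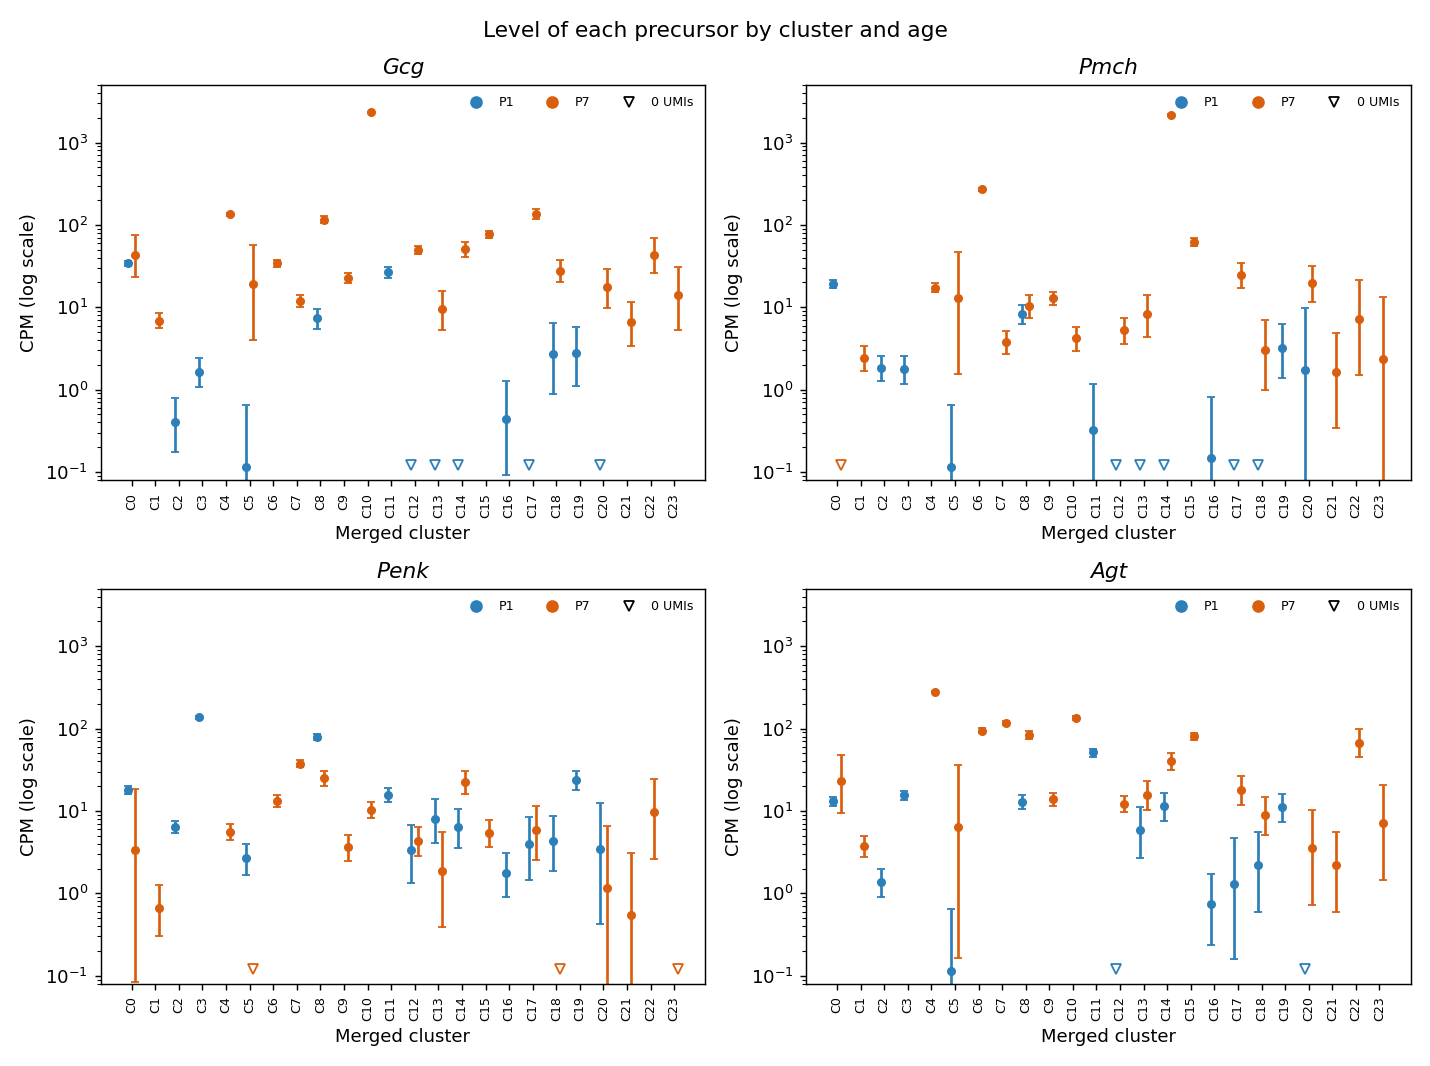
Level in CPM (log scale) of each precursor in every merged cluster with at least 50 cells of the library, for P1 and P7, with 95% Poisson intervals; open triangles mark clusters with 0 UMIs. The highest points are C10 at P7 for Gcg (2329 CPM), C14 at P7 for Pmch (2174 CPM), C3 at P1 for Penk (138 CPM) and C4 at P7 for Agt (281 CPM).

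In the mesenchyme, Pmch-rich cells of C6 stood out within their own cluster. The 89 P7 cells with 10 or more Pmch UMIs and the 1344 with 0 had median depths of 7584 and 6370.5 UMIs, and no rich cell was called a doublet. Cldn5, which encodes a tight junction claudin, had 953 CPM in rich cells and 98.1 CPM in the others, and a Cldn5 UMI was found in 87.6% and 18.1% of them. Notum, a Wnt-inactivating carboxylesterase, had 669 and 100 CPM, and Ccn3, a matricellular gene, had 10059 and 2246 CPM. Igfbp5, which encodes an insulin-like growth factor binding protein, had 103 CPM in rich cells and 1884 CPM in the others, and Otos had 64.4 and 618 CPM. Haemoglobin genes were lower in the rich cells (Hba-a2.1, 93.0 and 830 CPM), and their part was not tested. Epcam was near 0 in both, at 2.86 and 5.91 CPM. Plvap and other endothelial genes led C18 and not C6, and Pmch in C18 at P7 had 5 UMIs in 189 cells.

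Within the same integrated clusters Pmch was again higher at P7. I4, led by Pmch, Maob, Slc27a6 and Wif1, was left without a name because haemoglobin genes were among its 10 leading genes. Pmch had 348 UMIs in its 1103 P1 cells (51.2 CPM) and 2876 UMIs in its 965 P7 cells (447 CPM), a log2 ratio of 3.13 (2.96 to 3.29). With I4 unnamed, the mesenchyme-like share of Pmch UMIs in the integrated clustering was 19.6% at P1 and 6.23% at P7. The interval of the Pmch ratio lay above 0 in 10 of the 21 clusters and below 0 in 0; in I0 and I8 the P7 levels were 2.74 and 1.61 CPM, near the 2.44 CPM of glia (C1). Pmch lies within the span of Parpbp in RefSeq; Parpbp itself had 219 UMIs at P1 and 258 at P7, and 3.85 CPM in C6 at P7.

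Penk was the only 1 of the 4 with a lower level at P7, and its highest clusters, C3 at P1 and C7 at P7, were not those of Gcg or Pmch. At P1, C3 held 2184 of the 3507 UMIs (62.3%), a level of 138 CPM (132 to 144), in 709 of 2235 cells. C3 was led by Penk, Pnoc, Col8a1, which encodes a short-chain collagen, and B3gat2, which encodes a glucuronyltransferase. Dividing cells (C8) followed with 79.2 CPM (73.0 to 85.8), and the doublet-rich glial C19 with 23.5 CPM (17.9 to 30.3), where 220 of 246 cells were called doublets. The intervals of C8 and C19 did not overlap, whereas C19 overlapped C0 (17.9 CPM) and C0 overlapped C11 (15.7 CPM). At P7, C7, led by Sfrp4 and Phex, had the highest level, 406 UMIs and 37.4 CPM (33.8 to 41.2), in 244 of 1409 cells. C7 took the same name as C6, the mesenchyme-like cluster highest for Pmch, from the markers Sfrp4, Dlx5 and Matn4. In C6 Penk had 144 UMIs, a level of 13.2 CPM (11.1 to 15.6). The single P7 cell with most Penk, 33 UMIs, was an epithelial cell with 60 Epcam UMIs, and C14 as a whole had 22.6 CPM (16.2 to 30.7), overlapping dividing cells at 25 CPM (20.3 to 30.3).

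In integrated clusters Penk was lower at P7 in each of the 3 where it was most abundant at P1. In I12 it had 859 UMIs in 425 P1 cells (267 CPM) and 116 UMIs in 330 P7 cells (42.7 CPM), a log2 ratio of -2.65 (-2.94 to -2.36). In I3 it had 129 CPM at P1 and 32.8 CPM at P7, a log2 ratio of -1.98 (-2.18 to -1.78). In the dividing cells of I9 it had 81.4 and 22.5 CPM, a log2 ratio of -1.86 (-2.17 to -1.55). The interval lay below 0 in 11 of the 21 clusters and above 0 in 1, the epithelial I14 (6.58 and 23.3 CPM), where 33 of the 41 P7 UMIs lay in 1 cell. Some of the 11 had low levels at both ages. Penk had 2.06 and 0.661 CPM in the glial I0, 5.21 and 1.34 CPM in I8, and 7.89 and 1.88 CPM in the pericytes of I13. Free RNA was not estimated, and in these clusters it cannot be told apart from low expression. In I10, also among the 11, 511 of 892 cells were called doublets. In the fibrocyte-like I6 the levels were 9.83 and 8.29 CPM and the interval of the log2 ratio, -0.77 to 0.27, included 0.

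The 31 P1 cells of C3 with 10 or more Penk UMIs were set beside the 1526 with 0; median depths were 7886 and 6298 UMIs. Col1a1, which encodes a chain of collagen I, had 5278 CPM in rich cells and 426 CPM in the others. Eln, the elastin gene, had 629 and 109 CPM, and Pnoc had 143 and 40.6 CPM. Otor had 1401 and 3396 CPM, lower in the rich cells. Haemoglobin reads moved with this split too: the alpha globin gene Hba-a2.1 had 1393 CPM in rich cells and 201 CPM in the others, and the part of red cell RNA in these differences was not tested.

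Agt was the most widely spread of the 4 at P7. The fibroblast-like C4, led by Col15a1, Lepr and Dcn, held 3863 of 8548 UMIs (45.2%), a level of 281 CPM (272 to 290), in 1313 of 1890 cells. Of these, 1281 had 1 to 9 UMIs and 32 had 10 or more. The fibrocyte-like C10 had 133 CPM (126 to 141), C7 had 117 CPM (111 to 124) and C6 had 94.6 CPM (88.9 to 101). The first 4 in the order did not overlap except that C6 overlapped dividing cells at 84.5 CPM (75.8 to 94.0). Glia (C1) had an Agt UMI in 50 of 2587 cells (1.93%, 1.44 to 2.54), against 69.5% of C4 cells (67.3 to 71.5). At P1, C11 had 51.3 CPM (45.9 to 57.3), the highest level, and C3, C0, C8, C14 and C19 lay between 11.1 and 15.5 CPM with intervals that overlapped. The single P7 cell with most Agt, 32 UMIs, was an epithelial cell with 35 Epcam UMIs.

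Agt was higher at P7 within most integrated clusters. In I1, led by Col15a1 and Lepr, it had 51.9 CPM in 950 P1 cells and 295 CPM in 1527 P7 cells, a log2 ratio of 2.50 (2.35 to 2.67). In the fibrocyte-like I6 it had 17.6 and 152 CPM, a log2 ratio of 3.11 (2.84 to 3.39). In I3, where Penk was lower at P7, Agt had 15.9 and 144 CPM, a log2 ratio of 3.18 (2.91 to 3.47). The interval lay above 0 in 14 of the 21 clusters and below 0 in 0; the P7 level of I8 among them was 4.29 CPM, near the 3.77 CPM of glia (C1). In RefSeq, Agt overlaps Cog2 and Capn9; Cog2 had 1757 UMIs at P1 and 2016 at P7, and Capn9 1 and 3.

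**Figure D4:**
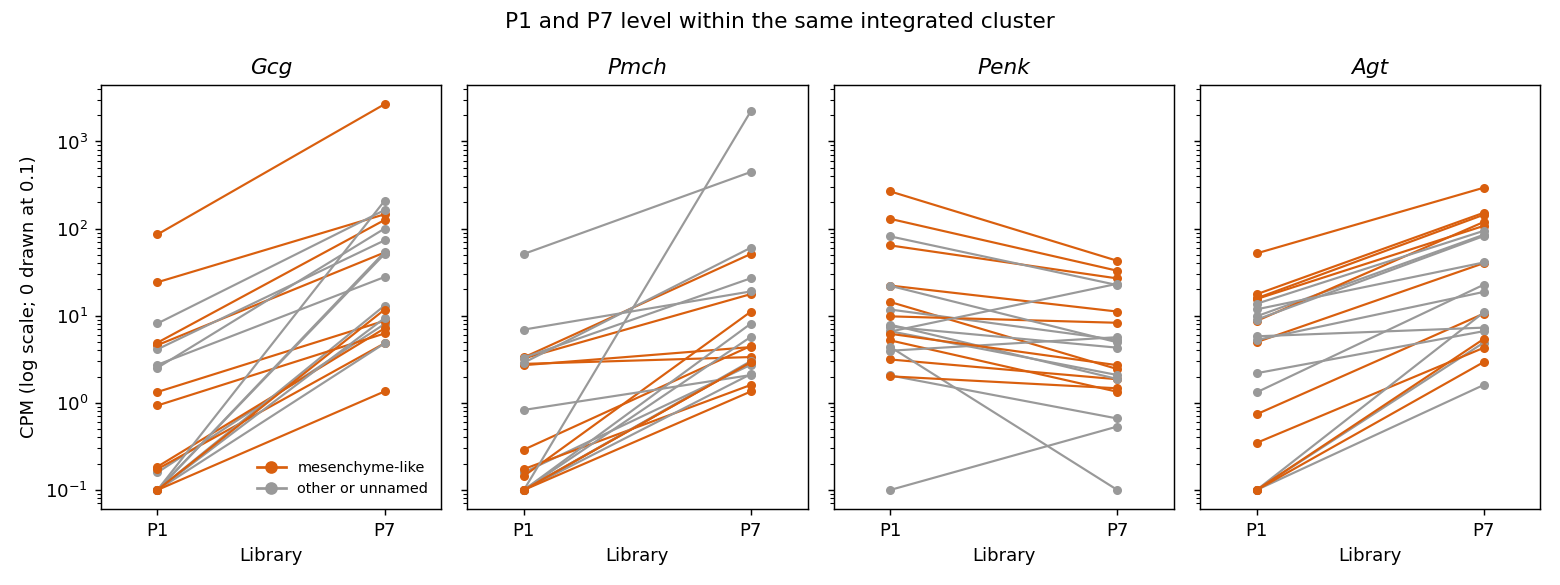
Level of each precursor in CPM (log scale, 0 drawn at 0.1) at P1 and P7 within each of the 21 integrated clusters with at least 50 cells of both libraries; a line joins the 2 ages of a cluster, orange for mesenchyme-like clusters and grey for the others or unnamed. In the top lines Gcg goes from 85.7 to 2676 CPM in I6, Pmch from 0 to 2235 CPM in the epithelial I14 and from 51.2 to 447 CPM in I4, Penk from 267 to 42.7 CPM in I12 and Agt from 51.9 to 295 CPM in I1.

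At P7, cells with 3 or more UMIs of both Gcg and Pmch were rare. At that age Gcg, Pmch and Penk were each found together with Agt in some cells. At P7, 563 cells had 3 or more Gcg UMIs, 219 had 3 or more Pmch UMIs, and 2 cells had both. These 2 are 0.355% of the Gcg cells, where 1.74% of all P7 cells reached 3 Pmch UMIs. They are 0.913% of the Pmch cells, where 4.475% of all P7 cells reached 3 Gcg UMIs. At P1, 82 cells reached 3 Gcg UMIs, 49 reached 3 Pmch UMIs and 0 reached both. Over all P1 cells the shares were 0.642% for Gcg and 0.383% for Pmch, so 0 is near them. At P7, 65 cells reached 3 Penk UMIs, of which 2 also reached it for Gcg (3.08%), 0 for Pmch and 12 for Agt (18.5%). Over all P7 cells these shares were 4.475%, 1.74% and 9.03%, so those for Gcg and Pmch were near the shares of all cells. At 1 or more UMIs, Penk was found in 5.14% of P7 Gcg cells, 3.85% of P7 Pmch cells and 4.76% of all P7 cells. Of the 563 Gcg cells at P7, 182 (32.3%) also had 3 or more Agt UMIs, where 9.03% of all P7 cells did, and of the 219 Pmch cells 26 did (11.9%). Within C10 alone, at least 1 Agt UMI was found in 217 of the 283 cells with 10 or more Gcg UMIs (76.7%) and in 150 of the 406 cells with 0 (36.9%); the median depths of these cells were 10928 and 8704.5 UMIs, and the Agt levels 194 and 83.5 CPM.

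Gcg-rich cells of C10, of which 7 of 283 were called doublets, also had more of several other transcripts. Sncg, the gamma-synuclein gene, had 693 CPM in cells with 10 or more Gcg UMIs and 110 CPM in cells with 0. Mia, which encodes a small secreted protein related to otoraplin, had 685 and 168 CPM. Dpp4, the dipeptidyl peptidase that inactivates glucagon-like peptide-1, had 286 CPM (267 to 306) in Gcg-rich cells and 102 CPM (91.5 to 113) in cells with 0. In C4, a different cluster, the 37 Gcg-rich cells had 270 CPM of Dpp4 and the 1659 cells with 0 had 46.0 CPM, and in the P1 cells of I6 the 16 rich cells had 506 CPM and the 817 cells with 0 had 114 CPM. Dpp4 was thus the higher in Gcg-rich cells in all 3 comparisons. Cdc42ep3, a gene of Cdc42 signalling, was lower in the rich cells of C10, at 17 against 124 CPM, and Postn, which encodes periostin, had 74.2 against 161 CPM. Haemoglobin genes led among the genes higher in the 16 P1 cells, and their part was not tested.

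Of the genes for prohormone processing and granules, 25 of 26 listed were in the tables and 23 reached 20 CPM in some cluster of at least 50 cells. Among the 23 with at least 200 UMIs in either library, 2 were more than 2-fold higher at P7 and 7 more than 2-fold lower, where 10.4% and 10% of all genes were, with a median log2 ratio of -0.68, beside 0.085 over all genes. The convertases of classical endocrine granules were nearly absent from C10, the P7 cluster highest for Gcg. Pcsk1 was highest in glia (145 CPM in C5 at P1 and 45.9 CPM in C1 at P7) and Pcsk2 in neurons (33.0 CPM in C16 at P1). In C10 at P7, Pcsk1 had 0.568 CPM and Pcsk2 0 UMIs. Of the convertases of the constitutive pathway, Furin had 76.2 CPM and Pcsk6 31.3 CPM in C10, and 128 and 65.2 CPM in C6. Whether they cut the members' precursors was not tested. Scg5, Chga, Chgb and Vgf, which encode granule proteins, were highest in neurons at P1, and their levels over all cells were lower at P7 by 3.49, 5.09, 5.06 and 5.89 on the log2 scale. The number of cells in the neuronal cluster also differed, 384 at P1 and 33 at P7, and for these genes fewer neurons and less RNA per neuron were not separated.

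Cpe, the carboxypeptidase that trims peptides after a convertase has cut, was abundant in mesenchyme and unevenly so. Its highest levels were 796 CPM in C0 at P1 and 891 CPM in C9 at P7. In C6 at P7 it had 1899 CPM (1799 to 2004) in the 89 Pmch-rich cells and 259 CPM (249 to 270) in the cells with 0, a difference of 2.78 on the log2 scale with 20 CPM added to both. In the P1 cells of I4 the 10 Pmch-rich cells had 1584 CPM and the 1005 with 0 had 737 CPM. In the epithelial C14 the direction was the other way, 17.2 CPM in Pmch-rich cells against 219 CPM. Scg3, a granule protein, had 120 and 34.2 CPM in rich and other cells of C6. Cpe differed less with Gcg: 352 CPM in Gcg-rich cells of C10 and 285 CPM in the others, and in the P1 cells of I6 it was lower in the 16 rich cells, at 446 against 1436 CPM. Cadps2, which encodes a dense-core vesicle priming factor, had 60.8 CPM in Gcg-rich cells of C10 and 10.1 CPM in the others.

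**Figure D5:**
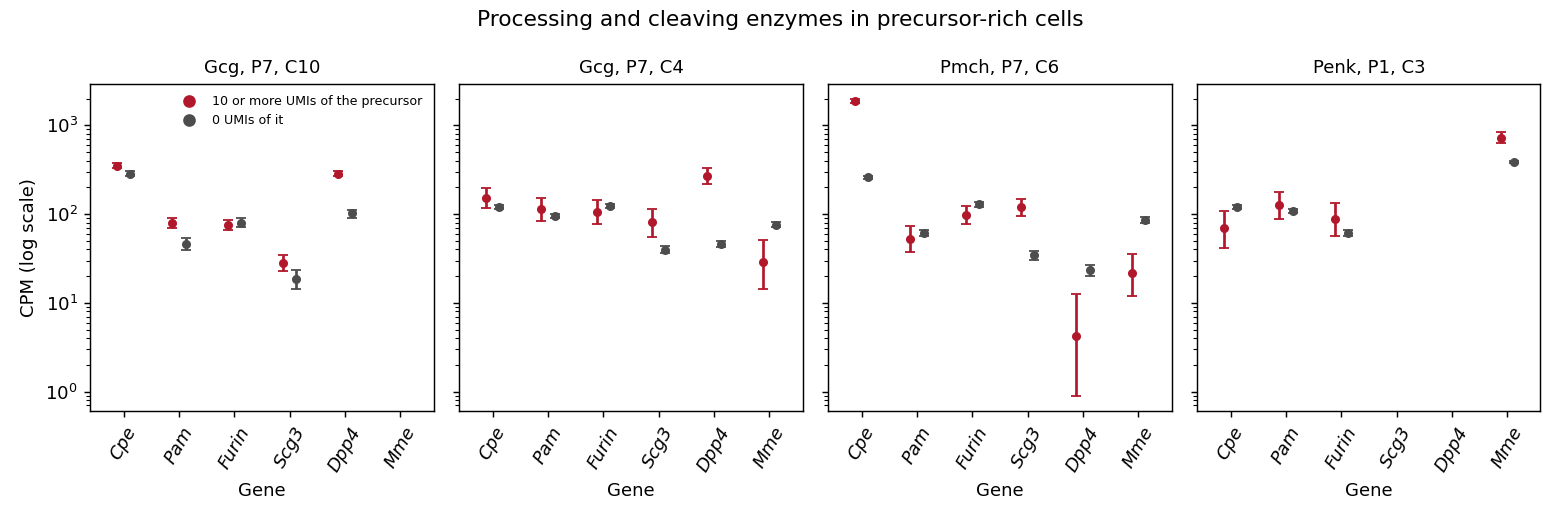
Level in CPM (log scale) of 6 processing or peptide-cleaving genes in cells with 10 or more UMIs of a precursor and in cells of the same cluster and age with 0, with 95% Poisson intervals; genes under 20 CPM in both sets are not drawn. Dpp4 is the higher in Gcg-rich cells of C10 and C4, and Cpe (1899 against 259 CPM) and Scg3 in Pmch-rich cells of C6.

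Of the 15 receptor genes for the peptides of these precursors, 4 reached 20 CPM in some cluster and 3 had no UMI in either library. The glucagon and glucagon-like peptide receptor genes were not among the 4: Glp1r had 0 UMIs in both libraries and Gcgr had 60 UMIs at P1 and 49 at P7. Mchr1, the rat receptor gene for melanin-concentrating hormone, had 45 and 14 UMIs. The opioid receptor genes Oprm1 and Oprd1 had at most 1 UMI per library, whereas Oprk1, the kappa receptor gene, had 673 and 816, with its highest level in glia (51.5 CPM in C5 at P1). Ackr3, which encodes an atypical receptor that binds CXCL12 and opioid peptides, was more than 2-fold higher at P7, from 3.38 to 19.8 CPM over all cells. Agtr1a, the type 1 angiotensin receptor gene, was highest in pericytes (C13), at 36.2 CPM at P1 and 48.0 CPM at P7, and had 21.0 CPM in C4. The genes under 20 CPM are named here after their values were seen.

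Of the 17 genes for enzymes that make or cut the members' peptides, 13 reached 20 CPM in some cluster, and of the 12 with at least 200 UMIs 0 were more than 2-fold higher at P7 and 1, Mme, was more than 2-fold lower, near the 10.4% and 10% of all genes. Mme, which encodes neprilysin, an enzyme that cuts enkephalins, had its highest levels in the clusters that were highest for Penk: 447 CPM in C3 at P1 and 294 CPM in C7 at P7. In C3 it had 729 CPM in Penk-rich cells and 389 CPM in cells with 0. Dpp4 had its highest P7 level in C10, 192 CPM, the cluster highest for Gcg, and its highest P1 level in C0, 64.1 CPM. For the angiotensin system, Ace had 14 UMIs at P1 and 11 at P7 in all cells of the libraries. Enpep, which cuts angiotensin II, had 133 CPM at P1 and 356 CPM at P7 in C20, a mesenchyme-like cluster with Ccn3, Irx3 and Scg3.

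Other precursors of hormones and neuropeptides were mostly low. Of 75 listed, 69 were in the tables, 12 reached 20 CPM in some cluster and 6 had no UMI. Among the 18 with at least 200 UMIs, 4 were more than 2-fold higher and 4 more than 2-fold lower at P7, where 10.4% and 10% of all genes were. Tac1, the substance P precursor, was the most abundant of the 12 by its highest cluster, and it lay in the clusters of Penk: 262 CPM in C3 at P1 and 300 CPM in C7 at P7. Unlike Penk it did not differ much over all cells, at 74.2 and 76.7 CPM. Pnoc had 49.5 CPM in C3 at P1. Npb, the neuropeptide B precursor, had 29.4 CPM in C11 at P1 and 28.4 CPM in C4 at P7, the clusters highest for Agt at each age. Nppc, the C-type natriuretic peptide precursor, was at 1.30 CPM over all P1 cells and 8.76 CPM over all P7 cells. The insulin gene Ins1 had 0 UMIs.

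The genes whose levels over clusters were most like those of a member were taken by Pearson's correlation of log2(CPM + 5) over the 33 pairs of cluster and library with at least 50 cells, 14 of P1 and 19 of P7; clusters of a library share its depth and are not replicates. For Gcg they were Car3 (r = 0.88), Otos (0.82), Trafd1 (0.78), Ctxn3 (0.77) and Slc16a6 (0.76). For Pmch they were Gal3st3 (0.74), Tmprss9 (0.74), Mansc4 (0.70), Apoa4 (0.69) and Prss36 (0.69). For Penk they were Pnoc (0.88), Fndc3a (0.84), Ptger3 (0.80), Col24a1 (0.80) and B3gat2 (0.80). For Agt they were Fam180a (0.95), Sphk1 (0.92), Steap4 (0.91), Apod (0.91) and Ptx3 (0.91). Between members the highest value was 0.75, for Gcg and Agt, and the lowest 0.059, for Gcg and Penk. The pairs pool both libraries, so the difference between P1 and P7 enters every r. The members were chosen with that difference known, and r within an age was not computed. Over all cells, Apoa4 had 0.133 CPM at P1 and 2.76 CPM at P7, and Mansc4 had 0.224 and 2.79 CPM, below the 5 CPM added. Apod, which encodes a lipocalin, shared the direction of Agt over all cells, at 763 CPM in the P1 library and 2245 CPM in the P7 library.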

How the data were processed

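Cochlear cells of P1 and P7 rats were captured with the 10x Chromium 3′ kit (V3), and the authors demultiplexed the reads with bcl2fastq, aligned them to rn6 and counted genes with Cell Ranger (version 3.1.0 in the file headers); they used Seurat 3.1.1 downstream. The deposited values are raw UMI counts per gene and barcode, 1 table per age; the submitters' tissue was pooled from several animals, and neither a doublet step nor a free RNA step was stated. Total counts of cells kept were 98005495 at P1 and 93080129 at P7, which set the precision of the intervals.

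Barcodes were kept with a gene number between the study's limits of 500 and 5000 (both excluded), 500 UMIs or more, and a mitochondrial share below 25%. CPM was the sum of counts over the cells of a group per 1000000 UMIs. Merged cells were clustered with Seurat 5.3.0 (1855 variable genes after the members and listed genes were left out, 10 components, resolution 0.8); integration by canonical correlation, 30 components, resolution 1.2, removal of Scrublet doublets (622 at P1 and 775 at P7; scanpy 1.11.5), a mitochondrial limit of 10%, every barcode, cells thinned to 2000 UMIs and another scaling were alternatives. Doublets were otherwise kept. A cluster took the name of the marker list with the highest mean log2 ratio to other cells (at least 0.5, with at least 3 markers in 10% of cells), or otic mesenchyme where at least 10 of its 14 genes were detected. These naming limits, the comparison of cells with 10 or more UMIs to cells with 0 (20 CPM added before logs) and the leaving out of the highest cells were set after the data were seen. Scripts were tested on simulated data.

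The members and gene lists were chosen with earlier results of these data known. The text names the members, the 5 genes most like each in pattern, and listed genes of at least 20 CPM in some cluster; leading genes of clusters and of cells rich in a member were named after their values were seen. With 1 library per age no test was made. Results for some listed genes are not reported here.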

Additional observations from a re-analysis of the deposited data

How the results depend on the processing

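Every alternative kept the direction of the 4 ratios of P7 to P1. On the log2 scale Gcg was 4.95 with every barcode and 5.14 without the 10 highest cells of each library, Pmch 3.74 without doublets and 3.65 without the 10 highest cells, and Agt 3.21 with every barcode. Leaving out the highest cells was chosen after seeing the data. With integration, the mesenchyme-like share of UMIs at P1 and P7 was 89.0% and 90.1% for Gcg, 19.6% and 6.23% for Pmch, 76.4% and 74.2% for Penk, and 76.4% and 80.5% for Agt; the Pmch-rich cluster carries no mesenchyme name there. At P7 it was 92.8% for Gcg and 86.5% for Agt at resolution 1.2, and 86.3% for Agt with 30 components. Without doublets it was 97.0% for Gcg, 53.9% for Pmch, 82.0% for Penk and 92.7% for Agt at P7, and 81.2% for Penk at P1. The share in 1% of cells, with cells thinned, was 100% and 63.0% for Gcg, 100% and 85.9% for Pmch, 45.2% and 67.4% for Penk, and 53.6% and 18% for Agt at P1 and P7; under 1% of thinned P1 cells held a Gcg or Pmch UMI. With every barcode it was 70.8% for Gcg, 89.9% for Pmch and 14.8% for Agt at P7, and 41.9% for Penk at P1.

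With integration the level of the highest cluster was 85.7 CPM at P1 and 2676 CPM at P7 for Gcg, 51.2 CPM at P1 for Pmch, 267 and 42.7 CPM for Penk, and 295 CPM at P7 for Agt. With 30 components it was 108 and 2104 CPM for Gcg, 24.8 and 2971 CPM for Pmch, and 220 and 30.9 CPM for Penk. At resolution 1.2 it was 80.6 CPM for Gcg, 55.0 CPM for Pmch and 161 CPM for Penk at P1, and 33.8 CPM for Penk and 301 CPM for Agt at P7. Without doublets it was 2365 CPM for Gcg and 1535 CPM for Pmch at P7. The name of the highest cluster changed in some settings. With 30 components it was epithelium for Penk at P7. In the merged C14, 33 of the 41 P7 Penk UMIs lay in 1 cell. For Gcg and Pmch at P1 the name with 30 components was otic mesenchyme in place of fibrocytes. Both clusters took it only by the number of listed genes detected. Their mean log2 ratios for that list were -1.05 and -1.18, so the list was lower there than in other cells. For both, a change of cell type was not shown. At resolution 1.2 the name was a mesenchyme with Ccn3, Irx3 and Scg3 for Pmch at P1. The cause of the other changes was not tested. No paired analysis was possible because each age had 1 library. With 1 library per age, no spread between animals was measured, and leaving out a replicate was not possible.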
